A study of Mus musculus with 29 samples.

Results

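Gadd45a and Gadd45g, the GADD45 genes not targeted in Gadd45b knockout mice, and 8 kinases of the stress cascade to which GADD45 proteins bind were examined in RNA-seq of hematopoietic stem cells (HSCs). The members were taken by gene symbol, and all 10 were found among the 55376 symbols of the count tables. HSCs had been sorted from young and old wild-type (WT) mice and from young and old mice labelled with the genotype Gadd45KO, which gave 4 YWT, 4 OWT, 4 YKO and 7 OKO libraries prepared with the SMART-Seq v4 kit. The labels give age only as young or old and sex as F for all 19 libraries, while the study's sample sheet lists both sexes. The knockout mice came from a Jackson Laboratory line that was bred and aged at the study's own facility, and no Cre driver that would limit the loss of Gadd45b to HSCs is named. The labels do not say whether each library came from its own animal, so p-values measure the spread between these libraries.

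GADD45 proteins are small, stress-inducible proteins without enzymatic activity of their own. They bind and open the MAP3K called MTK1 or MEKK4, the product of Map3k4, which then phosphorylates the MAP2Ks MKK3 and MKK6 (Map2k3 and Map2k6) upstream of p38 and the MAP2Ks MKK4 and MKK7 (Map2k4 and Map2k7) upstream of JNK. In blood cells p38 and JNK respond to cytokines, oxidative stress and DNA damage, and p38 is known for its part in the loss of HSC quiescence. RNA levels of these kinases do not measure their phosphorylation.

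The libraries held 22197555 to 77970627 reads counted on genes, and the median library held 57562473. All 8 HSC markers, among them Kit, Mecom and Hlf, were counted in each library, and their summed level was between 2017 and 4226 CPM. CPM is the usual depth-scaled read count, here normalized by the TMM method. This method adjusts for RNA composition by taking most genes as unchanged, and it need not remove such differences. The OWT libraries and OKO4 to OKO7 carry the title prefix IB15, which the study's sample sheet lists as the second sequencing batch, and the other 11 libraries do not. Age in WT and batch therefore cannot be told apart, whereas OKO was sequenced in both batches. The 3 OKO libraries without the prefix stood apart, with between 19725 and 27972 genes above 1 CPM, against 15296 to 19626 in the other 16 libraries.

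The targeted gene did not separate the genotypes in young mice. Gadd45b was at 9.12, 17.5, 8.17 and 7.34 CPM in YWT and at 12.7, 14.3, 5.98 and 5.14 CPM in YKO1 to YKO4. The levels in YKO3 and YKO4 were below the lowest of YWT, whereas those in YKO1 and YKO2 were inside its range, so the groups are taken by their labels below. The labels do not say which part of the gene was deleted, and its count covers all of its exons. In OKO, Gadd45b ranged from 2.84 to 6.94 CPM with a median of 4.397, below all 4 OWT libraries (10.1, 10.4, 15.5 and 10.2 CPM), a separation seen downward in 0.359% of all tested genes. Its log2 fold change in OKO vs OWT was -1.37 (standard error 0.31), with an edgeR adjusted p of 0.267. DESeq2 gave -1.27 (adjusted p = 0.0324), and over all alternatives the adjusted p ranged from 0.0324 to 0.915. Against YKO the OKO level gave -1.10 ± 0.31 (SE, edgeR adjusted p = 0.0793) and, with YKO1 and YKO2 left out, -0.30 ± 0.35 (SE). With DESeq2 and all libraries, OKO vs YKO gave -1.045 (adjusted p = 0.0165).

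Gadd45a (chromosome 6 of mm10, 67035096 to 67037457) was the one member called as different with age in knockout HSCs. Part of its exons is shared with the antisense gene E230016M11Rik, from which its reads cannot be told apart without strand. It was at 42.2, 17.2, 37.8 and 28.0 CPM in the libraries labelled YKO and at 9.34, 10.8, 11.2, 13.3, 13.9, 17.96 and 19.3 CPM in OKO1 to OKO7. The first 5 OKO libraries lay below each YKO library, and OKO6 and OKO7 lay between YKO2 and the other 3. Scaled by library totals alone, OKO1 and OKO6 lay above YKO2, at 17.0 and 17.7 against 16.4 CPM, and OKO7 lay below it, at 15.3 CPM. The log2 fold change of Gadd45a in OKO vs YKO was -1.19 (standard error 0.25), a 2.28-fold lower level. Its Benjamini-Hochberg adjusted p, taken over the 33690 tested genes with edgeR, was 0.0196. A gene is called here where that adjusted p is under 0.05 and the levels differ by more than 1.5-fold. The count of called members in OKO vs YKO was thus 1 of 10, where 1.29% of all tested genes were called and 0.692% were called downward.

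That call depended on single libraries. Without YKO1 the log2 fold change of Gadd45a was -0.99 (edgeR adjusted p = 0.136), and without YKO3 it was -1.03 (edgeR adjusted p = 0.0842). Without both libraries labelled YKO in which Gadd45b lay in the YWT range, it was -1.25 (standard error 0.28) with an edgeR adjusted p of 0.175, in a fit that called 0.0542% of genes and 0 of the 10 members. With YKO and OKO fitted alone it was -1.18 (edgeR adjusted p = 0.0660). Over all alternatives the adjusted p of Gadd45a ranged from 0.000466 to 0.175.

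In WT HSCs the Gadd45a level overlapped fully between the ages. It was at 28.1, 19.5, 18.5 and 11.8 CPM in YWT and at 15.7, 18.4, 22.5 and 15.5 CPM in OWT, so all OWT libraries lay within the YWT range. The log2 fold change in OWT vs YWT was -0.11 (95% confidence interval -0.72 to 0.50). With batch as a covariate, which the OKO libraries alone inform, it was -0.74 (unadjusted p = 0.0750, edgeR adjusted p = 0.341), so its size in WT depends on how batch is treated. The genotype by age interaction, which tests whether the age difference itself differed between genotypes, was -1.08 for Gadd45a (standard error 0.39, unadjusted p = 0.0113, edgeR adjusted p = 0.811), and it called 0 of 10 members and 0% of all tested genes. DESeq2 called 0 members in it as well. At an unadjusted p under 0.05 the interaction held 1 of 10 members, Gadd45a, against 4.62% of all tested genes.

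Between genotypes, Gadd45a was higher in 2 of 4 libraries labelled YKO than in each YWT library, namely YKO1 and YKO3. The log2 fold change in YKO vs YWT was 0.68 (standard error 0.29, unadjusted p = 0.0301, edgeR adjusted p = 0.989), and this did not pass the threshold. In OKO vs OWT it was -0.40 (95% confidence interval -0.93 to 0.14, edgeR adjusted p = 0.602), with 5 of 7 OKO libraries below each OWT library. Scaled by library totals alone, OKO1 and OKO3 of these lay within the OWT range, at 17.0 and 15.8 CPM against 14.2 to 21.1 CPM. OKO and OWT share the batch of OKO4 to OKO7 only, and with these 4 alone the log2 fold change was -0.13 (standard error 0.28).

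Gadd45g (chromosome 13, 51846678 to 51848468) had the opposite direction to Gadd45a in OKO vs YKO. It was at 15.6, 18.99, 24.8 and 30.5 CPM in YKO and at 20.0, 23.9, 62.3, 51.3, 90.4, 48.3 and 30.7 CPM in OKO. After TMM normalization OKO1 and OKO2 lay within the YKO range and the other 5 OKO libraries above it, OKO7 by a margin of less than 1 CPM. Scaled by library totals alone, OKO1 and OKO2 lay above the YKO libraries, at 36.3 and 29.7 CPM against 13.2 to 28.5 CPM. OKO7 then lay within the YKO range, at 24.3 CPM. The log2 fold change was 1.05 (standard error 0.36, edgeR adjusted p = 0.152) and was not called in the edgeR fit. It was called by DESeq2, the tool named in the study's methods, at 1.10 (adjusted p = 0.0165), beside 6.3% of all tested genes. EdgeR called it after a filter on a mean CPM of at least 5, at 1.24 (adjusted p = 0.0181), beside 12.1% of the genes tested there. With upper-quartile normalization edgeR called it at 1.15 (adjusted p = 0.048), beside 3.2% of all tested genes. Over all alternatives its adjusted p ranged from 0.0165 to 0.381.

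In WT, Gadd45g was at 23.5, 17.7, 17.5 and 23.7 CPM in YWT and at 49.9, 51.5, 21.2 and 21.0 CPM in OWT. OWT1 and OWT2 lay above all YWT libraries, while OWT3 and OWT4 lay within their range. The log2 fold change in OWT vs YWT was 0.80 (95% confidence interval -0.01 to 1.62, edgeR adjusted p = 1.00). The interaction was 0.25 (standard error 0.52, edgeR adjusted p = 0.900), so a difference between the genotypes in the age response of Gadd45g was not detected. In YKO vs YWT it was 0.13 (95% confidence interval -0.69 to 0.94) and in OKO vs OWT 0.38 (95% confidence interval -0.35 to 1.11).

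**Figure D1:**
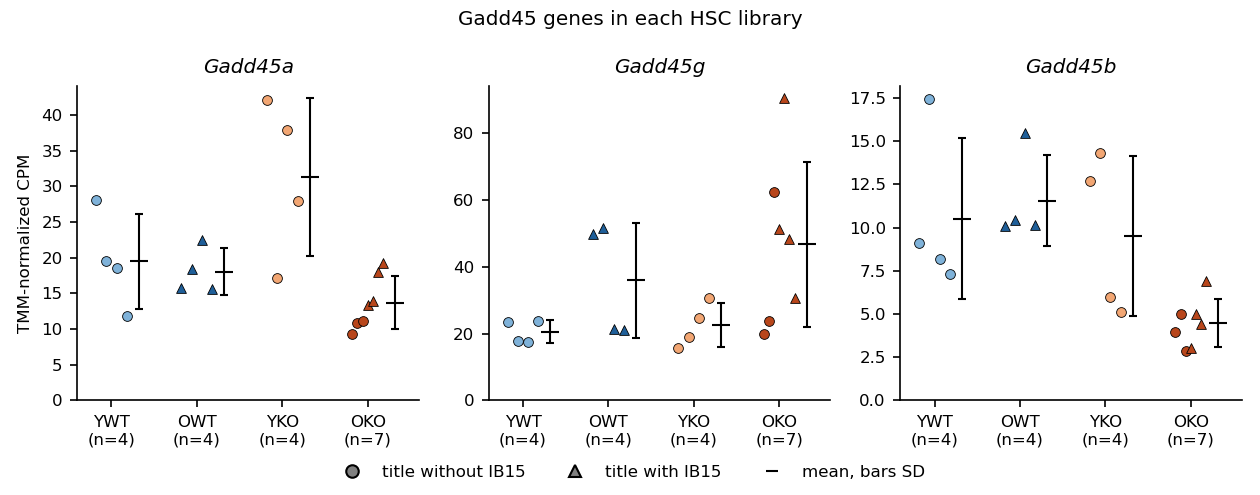
TMM-normalized CPM of Gadd45a, Gadd45g and the targeted gene Gadd45b in each of the 19 HSC libraries, by group. Circles are libraries whose title has no prefix and triangles those with the prefix IB15, and bars give the mean and SD. Gadd45a lay between 9.34 and 19.3 CPM in OKO and between 17.2 and 42.2 CPM in the libraries labelled YKO.

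Set side by side per kilobase of exon, the only scale on which different genes can be compared, the GADD45 transcripts had a different make-up in each library. In young HSCs Gadd45g was at 17.6 ± 2.95 (SD, n = 4) CPM per kb with the WT label and 19.2 ± 5.59 (SD, n = 4) with the knockout label, and in old HSCs at 30.6 ± 14.6 (SD, n = 4) and 39.8 ± 21.1 (SD, n = 7). Gadd45a was at 11.04 ± 3.79 (SD, n = 4) CPM per kb in YWT and 10.2 ± 1.85 (SD, n = 4) in OWT. With the knockout label it was at 17.7 ± 6.30 (SD, n = 4) CPM per kb in young and 7.76 ± 2.11 (SD, n = 7) in old HSCs. The summed level of Gadd45a, Gadd45b and Gadd45g was between 24.8 and 88.1 CPM per kb across the 19 libraries.

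Of that sum, Gadd45g held 76.1% ± 9.66 (SD, n = 7) in OKO, with a lowest share of 63.1% and a highest of 87.5%. In the libraries labelled YKO it held 44.8% ± 11.6 (SD, n = 4), with a range from 29.5% to 57.7%, so the OKO and YKO shares did not overlap. The share in OWT was 61.1% ± 14.2 (SD, n = 4) and in YWT 50.4% ± 9.87 (SD, n = 4), and these overlapped. For Gadd45a the share was 17.2% ± 6.33 (SD, n = 7) in OKO, against 40.6% ± 11.2 (SD, n = 4) in YKO. These shares restate the counts on another scale and were not tested.

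**Figure D2:**
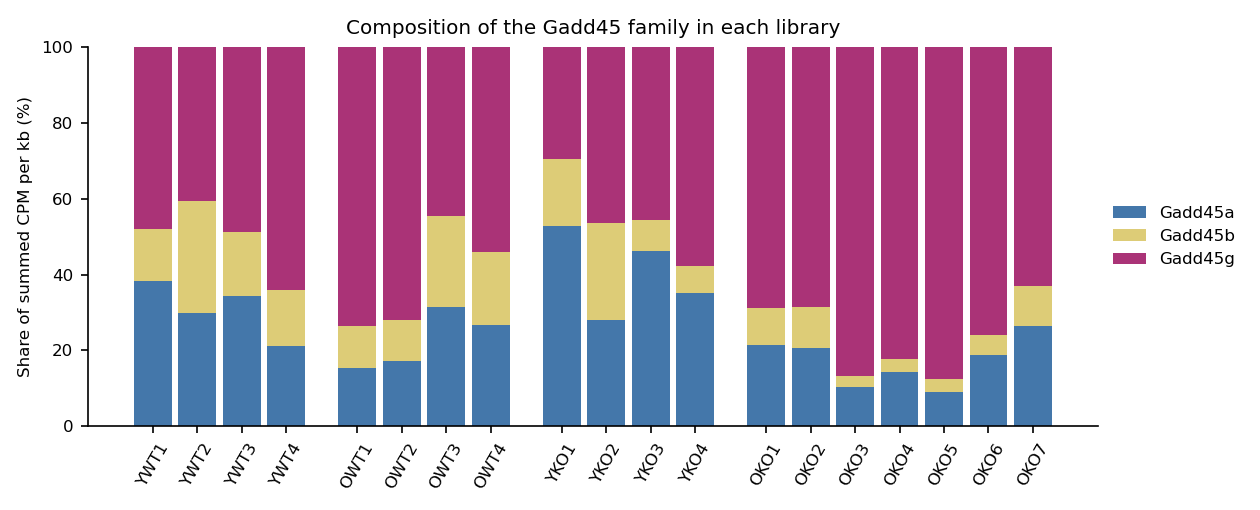
Share of Gadd45a, Gadd45b and Gadd45g in their summed level, in percent of CPM per kb, for each library. The Gadd45g share was at least 63.1% in all 7 OKO libraries and at most 57.7% in the 4 libraries labelled YKO.

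The genes whose pattern was most like Gadd45a over the 19 libraries, after the group means were removed, were Gm9905 (Pearson r = 0.900, Spearman rho = 0.930), Dnajc17 (r = 0.896, rho = 0.900) and Alkbh7 (r = 0.892, rho = 0.877). For Gadd45g they were Trim47 (r = 0.948, rho = 0.907), Dok1 (r = 0.932, rho = 0.884) and Smad7 (r = 0.923, rho = 0.918). They were taken from 11304 genes with a mean of log2(CPM + 1) of at least 3, as the highest of that many values. The libraries share depth, batch and RNA composition, and leaving out OKO1, the library with the most genes above 1 CPM, kept the 6 coefficients between 0.881 and 0.941.

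Map3k4, which encodes MTK1, had the narrowest spread among the members, with a 1.62-fold range over all libraries. In YWT it was at 67.3 ± 6.72 (SD, n = 4) CPM and in OWT at 67.2 ± 11.2 (SD, n = 4). Libraries labelled YKO gave 76.8 ± 5.70 (SD, n = 4) CPM and OKO libraries 62.1 ± 9.05 (SD, n = 7). In OKO vs YKO, where 5 of 7 OKO libraries lay below each YKO library, its log2 fold change was -0.31 (95% confidence interval -0.64 to 0.02, edgeR adjusted p = 0.353). In OWT vs YWT it was -0.0032 (95% confidence interval -0.38 to 0.37). Scaled by library totals alone, OKO1 and OKO2 lay above the YKO libraries, at 93.0 and 92.2 CPM against 57.8 to 77.1 CPM. OKO7 alone then lay below them, at 50.5 CPM.

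Among the MAP2Ks for p38, Map2k6 (chromosome 11, 110399122 to 110525522) was the one member with no overlap in OKO vs YKO after TMM normalization. It was at 14.5, 10.8, 9.67 and 9.65 CPM in the libraries labelled YKO and at 7.71, 6.45, 4.74, 6.90, 5.87, 7.73 and 5.93 CPM in OKO. All 7 OKO libraries lay below the 4 YKO libraries, a separation found downward in 1.48% of all tested genes. Scaled by library totals alone, OKO1 was at 14.02 CPM, above the YKO libraries at 9.01 to 12.25 CPM, so the groups then overlapped. The log2 fold change was -0.78 (standard error 0.20) with an edgeR adjusted p of 0.0592, so the call was missed in the edgeR fit and was made by DESeq2, at -0.72 (adjusted p = 0.00774). Over all alternatives its adjusted p ranged from 0.00774 to 0.314.

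Map2k6 was at 10.8, 7.26, 12.6 and 10.04 CPM in YWT and at 9.25, 9.14, 8.44 and 7.09 CPM in OWT. The OWT libraries lay within the YWT range except for OWT4, which was just below it. Its log2 fold change was -0.26 (95% confidence interval -0.74 to 0.22) in OWT vs YWT and -0.52 (standard error 0.31, edgeR adjusted p = 0.811) in the interaction. The other MAP2K for p38, Map2k3, held 93.7% ± 1.86 (SD, n = 19) of the summed level of both genes per kilobase. It was between 58.9 and 184 CPM, both extremes in OKO, and its log2 fold change in OKO vs YKO was -0.27 (95% confidence interval -0.76 to 0.22).

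The MAP2Ks for JNK were at similar levels per kilobase. Map2k4, whose product also phosphorylates p38, held 55.1% ± 4.44 (SD, n = 19) of their summed level and Map2k7 44.9% ± 4.44 (SD, n = 19). In OKO vs YKO the log2 fold change was -0.17 (95% confidence interval -0.63 to 0.30) for Map2k4 and -0.24 (95% confidence interval -0.71 to 0.22) for Map2k7. Neither was called in any of the comparisons between groups in the fit of all 19 libraries without a batch term. Map2k7 shares 32.8% of its 50-base exon stretches with the overlapping gene Gm49320, so reads of the pair can be split or dropped and its level is uncertain.

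Mapk14, which encodes p38 alpha, had the highest level per kilobase of the members in each group, at 68.7 ± 4.99 (SD, n = 4) CPM per kb in YWT and 54.0 ± 14.5 (SD, n = 7) in OKO. It held 86.9% ± 4.28 (SD, n = 19) of the summed level of the p38 genes Mapk11, Mapk12, Mapk13 and Mapk14. Its level was at 358, 268, 332 and 350 CPM in the libraries labelled YKO and at 147, 193, 186, 309, 312, 258 and 250 CPM in OKO. OKO4 and OKO5 lay within the YKO range and the other 5 OKO libraries below it. Scaled by library totals alone, OKO1 and OKO3 lay within the YKO range as well, at 268 and 262 CPM against 256 to 327 CPM. The log2 fold change was -0.47 (standard error 0.21, edgeR adjusted p = 0.273).

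JNK transcripts were mostly from Mapk9, which encodes JNK2 and held 95.5% ± 2.52 (SD, n = 19) of the summed level of Mapk8, Mapk9 and Mapk10 per kilobase. Mapk9 was at 173, 110, 162 and 130 CPM in the libraries labelled YKO and at 73.0, 90.8, 84.1, 137, 121, 115 and 122 CPM in OKO. After TMM normalization OKO1 to OKO3 lay below the YKO libraries and the other 4 within their range, and the log2 fold change was -0.44 (standard error 0.21, edgeR adjusted p = 0.303). Scaled by library totals alone, OKO1 to OKO3 lay within the YKO range of 105 to 155 CPM, at 133, 113 and 119 CPM. OKO5 and OKO7 then lay below it, at 104 and 96.4 CPM. Mapk8, which encodes JNK1, had the lowest level per kilobase of the members in each group, between 0.563 and 0.753 CPM per kb on average. It was the one kinase higher in OKO than in YKO, with a log2 fold change of 0.42 (95% confidence interval -0.15 to 0.98), and it spread from 4.42 to 14.7 CPM within OKO.

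**Figure D3:**
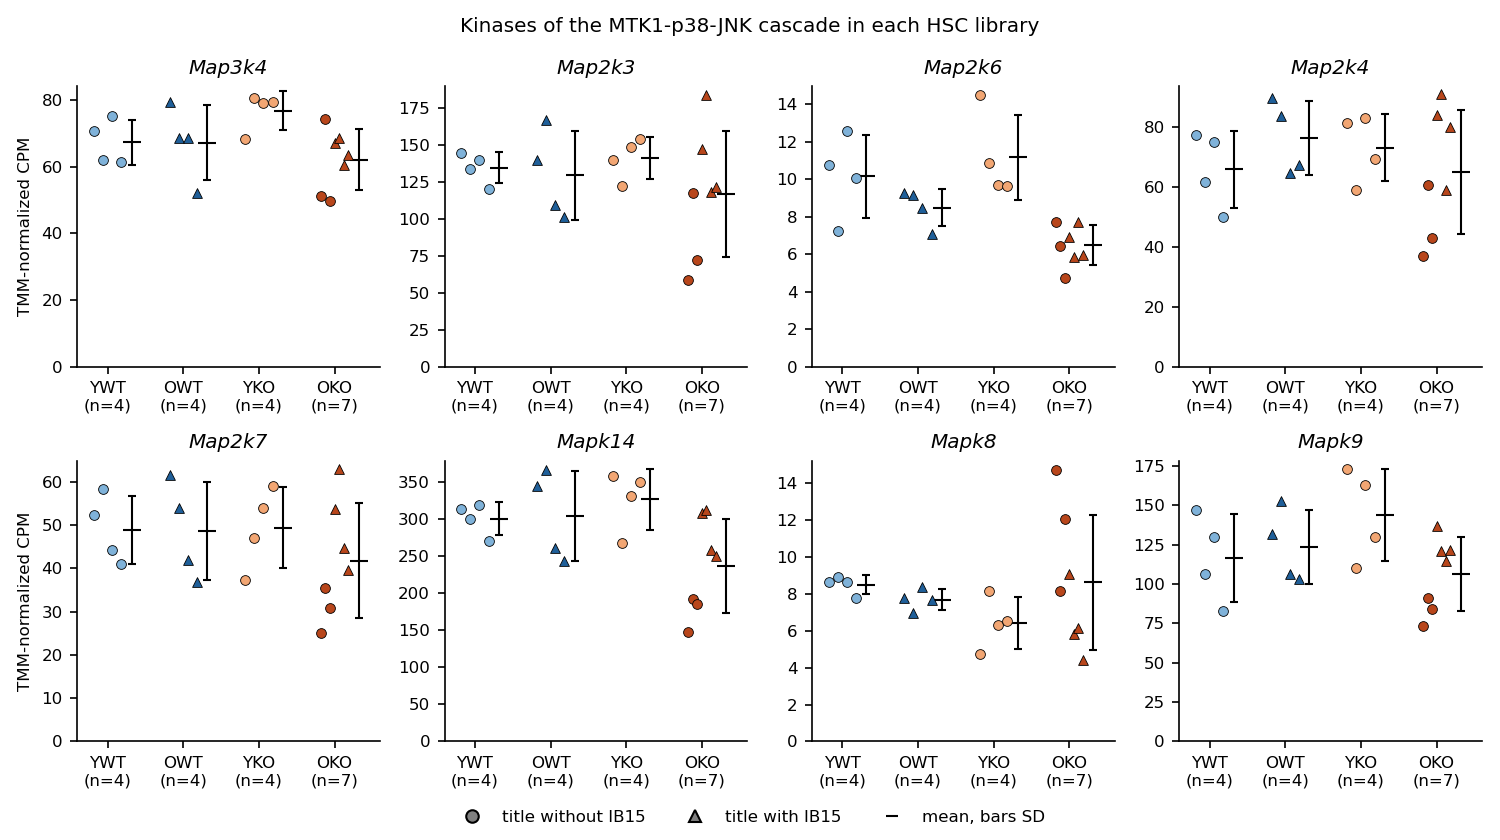
TMM-normalized CPM of the 8 kinases in each library, by group, with circles for titles without and triangles for titles with the prefix IB15, and bars for the mean and SD. Map2k6 was at 7.73 CPM or less in all 7 OKO libraries, and the OKO circles of Mapk14, Mapk9, Map2k3 and Map2k7 lay below the OKO triangles.

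The order of levels per kilobase was close to the same in the 4 groups. In YWT it ran from Mapk14 through Map2k3, Gadd45g, Mapk9, Map2k4, Map2k7, Gadd45a, Map3k4 and Map2k6 to Mapk8. Neighbours from Gadd45g to Map3k4 in that order overlapped between libraries, whereas Mapk14, Map2k3, Map2k6 and Mapk8 were each apart from their neighbours. Gadd45g ranked behind Mapk14 alone in OKO, where its range overlapped with those of Mapk14 and Map2k3.

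Across the members, the other comparisons gave no call. The count was 0 of 10 in OWT vs YWT, where 0.00297% of all tested genes were called, 0 of 10 in YKO vs YWT, where 0.0267% were called, and 0 of 10 in OKO vs OWT, where 0.0327% were called. At an unadjusted p under 0.05 the edgeR test gave 0 members in OWT vs YWT, against 4.38% of all tested genes, and 1 in YKO vs YWT, against 4.59%. It gave 0 in OKO vs OWT, against 8.14%, and 5 in OKO vs YKO, against 15.8%. DESeq2 called 3 members in OKO vs YKO, namely Gadd45a, Gadd45g and Map2k6, beside 6.3% of all tested genes, and 0 in each of the other 3 comparisons. No member separated the groups in OWT vs YWT or in YKO vs YWT, where 4.13% and 5.12% of all tested genes did.

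In OKO vs YKO, 8 of 10 members had a lower level whatever the size, with a median log2 fold change of -0.29, whereas 38.2% of all tested genes were lower and their median was 0.23. Among the 11253 tested genes whose mean log2 CPM was 3 or more, the range in which most members lie, the median was -0.19. Upper-quartile normalization moved the median of all tested genes to 0.43. In OKO vs OWT, 8 of 10 members were lower, against 44.1% of all tested genes, with medians of -0.22 and 0.12, and the median of the 11253 genes with a mean log2 CPM of 3 or more was -0.20, close to that of the members. Of these 8, Map3k4 and Map2k3 were higher under upper-quartile normalization, and these and Map2k7 and Mapk9 with a minimum mean CPM of 5. With OKO4 to OKO7 alone, the OKO libraries in the batch of OWT, Map2k3 (0.17), Map2k4 (0.069), Map2k7 (0.079) and Mapk9 (0.031) were higher and Mapk8 (-0.24) lower. In YKO vs YWT, 9 of 10 were higher, against 48.1% of all tested genes, with medians of 0.13 and -0.02. Comparisons that name the same group share its libraries.

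**Figure D4:**
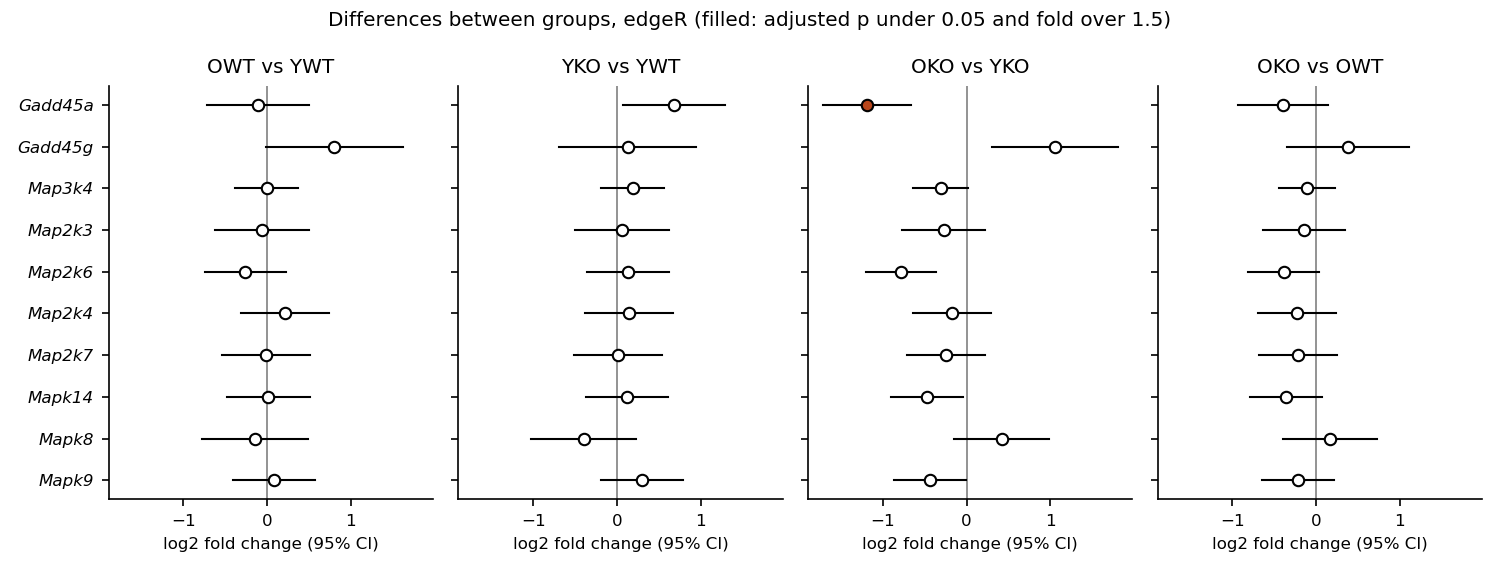
Log2 fold changes of the 10 members in the 4 comparisons from the edgeR fit of all 19 libraries, with their 95% confidence intervals as lines. The one filled point is Gadd45a in OKO vs YKO, at -1.19.

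Within OKO, several members differed between the batches. Gadd45a was at 10.4 ± 0.970 (SD, n = 3) CPM in OKO1 to OKO3 and at 16.1 ± 2.95 (SD, n = 4) in OKO4 to OKO7, and Mapk14 was at 175 ± 24.4 (SD, n = 3) and 282 ± 32.8 (SD, n = 4) CPM. The first batch lay wholly below the second for 5 of the 10 members, namely Gadd45a, Map2k3, Map2k7, Mapk9 and Mapk14, while 32.4% of all tested genes separated the batches in one direction or the other. Map2k6 did not differ in this way, at 6.30 ± 1.49 (SD, n = 3) and 6.61 ± 0.886 (SD, n = 4) CPM. These levels rest on TMM factors of 1.826, 1.244 and 1.413 in OKO1 to OKO3 and 0.7935 to 1.024 in OKO4 to OKO7. Scaled by library totals alone, the batches overlapped for all 5 members. Gadd45a was then at 17.0, 13.4 and 15.8 CPM in OKO1 to OKO3 and at 11.9 to 17.7 CPM in OKO4 to OKO7. Mapk14 was at 268, 239 and 262 CPM and at 198 to 316 CPM.

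Only OKO1 to OKO3 share their batch with YKO. With these 3 libraries as OKO, 7 of the 10 members were called against YKO, beside 17.9% of all tested genes. This fit used TMM normalization too, and other scalings were not tried with these 3 libraries. Gadd45a (-1.52), Mapk14 (-0.83), Map2k6 (-0.76), Mapk9 (-0.73), Map2k3 (-0.71) and Map2k7 (-0.63) fell on the log2 scale and Mapk8 rose by 0.92, with edgeR adjusted p between 0.00523 and 0.0454. With OKO4 to OKO7 as OKO, 0 of the 10 members were called, beside 0.815% of all tested genes, and Map2k3, Map2k4 and Map2k7 changed sign, to values between 0.03 and 0.13. Gadd45a was then at -0.94 (standard error 0.28, edgeR adjusted p = 0.128), Gadd45g at 1.31 (standard error 0.34, edgeR adjusted p = 0.0835) and Map2k6 at -0.73 (standard error 0.22, edgeR adjusted p = 0.143). These 3 genes had the same direction with OKO1 to OKO3, where Gadd45g was at 0.72 (standard error 0.38, edgeR adjusted p = 0.178). Of these 3 libraries OKO3 alone lay above the YKO range of Gadd45g after TMM normalization. Scaled by library totals alone, OKO1 and OKO2 lay above that range as well. With batch as a covariate, 8 members and 19.1% of all tested genes were called, Map2k4 in addition to the 7.

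**Figure D5:**
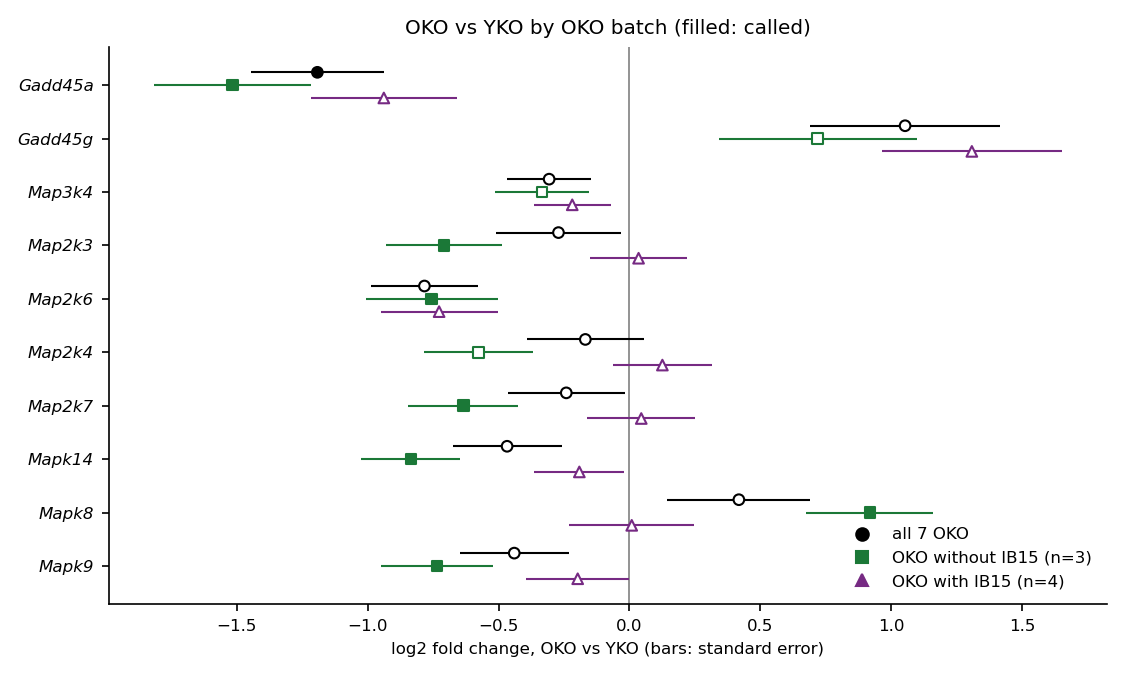
Log2 fold changes of the 10 members in OKO vs YKO with all 7 OKO libraries (circles), with the 3 without the prefix IB15 (squares) and with the 4 that carry it (triangles). Lines give the standard error and filled symbols are called, which were 1, 7 and 0 members.

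Markers of other blood cells also moved with the groups. The summed level of 5 erythroid markers, among them Klf1 and Alas2, was between 1301 and 3718 CPM in the libraries labelled YKO, between 21.8 and 2477 CPM in OKO, between 451 and 1917 CPM in YWT and between 66.5 and 890 CPM in OWT. All 5 were counted in each library. Within YKO the Gadd45a level was highest in YKO1 and YKO3, where the erythroid sum was 3223 and 3718 CPM, and lowest in YKO2, where it was 1301 CPM, but in YKO4, at 28.0 CPM of Gadd45a, that sum was 3432 CPM. Within OKO both were highest in OKO7, but OKO2 had the second highest erythroid sum, 1063 CPM, and the second lowest Gadd45a level. The summed level of 6 granulocyte markers was between 576 and 753 CPM in OWT and between 198 and 355 CPM in YWT, without overlap. That of 5 megakaryocyte markers was between 139 and 272 CPM in OKO1 to OKO3 and between 355 and 558 CPM in OKO4 to OKO7. The megakaryocyte split rests on the TMM factors, 1.244 to 1.826 in OKO1 to OKO3 and 0.7935 to 1.024 in OKO4 to OKO7. Of all tested genes, 32.4% separated these batches. The part of these markers in the members' differences was not tested. In bulk libraries fewer cells of a type and less RNA per cell cannot be told apart.

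Of the 57 other genes of the pathway, 2 fell and 0 rose in OKO vs YKO, where 1.29% of all tested genes were called and 0.692% were called downward, with a median log2 fold change of -0.09. Map3k6, a MAP3K related to ASK1, was at 17.5, 13.9, 9.32 and 12.4 CPM in the libraries labelled YKO and between 1.73 and 8.48 CPM in OKO. The groups did not overlap after TMM normalization, a separation found downward in 1.48% of all tested genes. The log2 fold change was -1.32 ± 0.32 (SE), at an edgeR adjusted p of 0.0419. Tdg, a DNA glycosylase of active demethylation that binds GADD45A, was at 37.95, 23.8, 34.9 and 31.8 CPM in YKO and between 8.14 and 26.7 CPM in OKO, and differed by -1.20 ± 0.27 (SE) on the log2 scale (edgeR adjusted p = 0.0275). Only OKO7 lay within the YKO range of Tdg. The call of Map3k6 was lost when any one of 8 libraries was left out (YWT4, YKO1, YKO2, YKO4, OKO3, OKO4, OKO5 or OKO6; edgeR adjusted p up to 0.204) and that of Tdg with any one of 4 (YKO1, YKO3, OKO3 or OKO4; up to 0.129), and both were lost with YKO1 and YKO2 left out.

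In OKO vs OWT, 1 of 57 was called, beside 0.0327% of all tested genes, and it was again Tdg. It was at 35.8, 52.9, 40.2 and 29.4 CPM in OWT, above all 7 OKO libraries, and the difference was -1.50 ± 0.27 (SE) on the log2 scale (edgeR adjusted p = 0.0411). Tdg shares sequence with the pseudogene Gm9855, so its counts are uncertain. The call was lost with OKO4 to OKO7 alone, at -1.25 (edgeR adjusted p = 0.191), and when any one of OWT1 to OWT3 or OKO1 to OKO6 was left out (edgeR adjusted p up to 0.208). In this comparison 44 of 57 genes were lower, against 44.1% of all tested genes. The median log2 fold change of the 57 genes was -0.11, against 0.12 for all tested genes. It was less negative than the median of -0.20 for the 11253 tested genes in the range of levels where most members lie. Map3k12, a MAP3K upstream of JNK in neurons, was lower in all OKO libraries than in OWT, as were 0.359% of all tested genes. Its log2 fold change was -0.38 (edgeR adjusted p = 0.592).

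In YKO vs YWT, 0 of 57 genes were called by edgeR, 8 had an unadjusted p under 0.05, against 4.59% of all tested genes, and 1 was called by DESeq2, against 0.404%. The genes named next had no overlap between the groups, as did 5.12% of all tested genes. Mef2c, a transcription factor that p38 phosphorylates, was at 252, 343, 308 and 219 CPM in YWT and at 173, 170, 135 and 176 CPM in the libraries labelled YKO. All of the latter lay below YWT, by -0.78 ± 0.25 (SE) on the log2 scale (edgeR adjusted p = 0.660). The JNK scaffold gene Spag9, at -0.54, lay below YWT in all 4 as well. Traf4, whose product binds and activates MTK1, lay above YWT in all 4, at 0.52, as did Mef2d, at 0.31.

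In OWT vs YWT, 0 of 57 genes were called by edgeR and 0 by DESeq2, against 0.00297% and 0.401% of all tested genes. In the edgeR test 3 had an unadjusted p under 0.05, against 4.38% of all tested genes, a similar share. The genes named next had no overlap between the groups, as did 4.13% of all tested genes. Map3k3, which encodes MEKK3, was at 109, 127, 76.7 and 72.1 CPM in OWT and between 49.1 and 71.7 CPM in YWT. Its log2 fold change was 0.64 (standard error 0.30, edgeR adjusted p = 1.00). Map3k12 was at 69.9 to 83.6 CPM in OWT and 56.9 to 67.9 CPM in YWT, with a log2 fold change of 0.25. OWT and YWT were sequenced in different batches.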

How the data were processed

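The 19 RNA-seq libraries of sorted HSCs were used, and the WGBS samples were not. Raw read counts per gene symbol, as featureCounts gave them after trimming and STAR alignment to mm10, were deposited by the authors without normalization. Whether strand was used is not given in the sources used here, so Gadd45a and the antisense gene E230016M11Rik cannot be told apart fully. Their spans, introns included, overlap by 859 bases, and Gadd45a shares 15.6% of its 50-base exon stretches with E230016M11Rik.

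The members and gene lists were chosen with earlier results of these data known. Counts were filtered with filterByExpr, normalized by TMM and tested with the quasi-likelihood test of edgeR 4.0.16 in R 4.3.3, in 1 fit of 19 libraries with 1 mean per group. DESeq2 1.42.0 was an alternative. P-values were adjusted over 33690 genes, and confidence intervals follow from the fit's standard errors. Lengths are the union of exons of GENCODE M21 on mm10. Gene positions come from the same annotation. The procedure was checked on simulated data.

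Named genes are the 10 members, Gadd45b, pathway genes that were called, and for each comparison, of the pathway genes that had no overlap between groups and a mean log2 CPM over 3, the 2 that rose most and the 2 that fell most. For Gadd45a and Gadd45g, the 3 genes with the highest correlation were named too. Other alternatives were upper-quartile normalization, all genes with a count, a minimum mean CPM of 5, calls on the adjusted p alone, the compared groups only, batch, sex or replicate number in the model, OKO of 1 batch, other lengths, and each library left out. OKO of the other batch, and leaving out YKO1 and YKO2, were chosen after the data were seen. No libraries were duplicates, since chi-square per gene was at least 25.4 for all 171 pairs. A result on another marker list is not reported here.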

Additional observations from a re-analysis of the deposited data

Results flagged for a closer look

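Of 44 groups of CPM values tested, 4 for each of the 10 members and Gadd45b, 2 held a library far from the others by Dixon's criterion, and chance gives about 2.2. Map3k4 was at 68.3 CPM in YKO1 and between 79.0 and 80.7 CPM in the other 3 libraries labelled YKO. Gadd45b was at 15.5 CPM in OWT3 and between 10.1 and 10.4 CPM in the other 3 OWT libraries. No member differed between the genotypes in its age response at an adjusted p under 0.05.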

How the results depend on the processing

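In OKO vs YKO the number of called members and of called pathway genes was 1 and 2. It was 3 and 6 with DESeq2 (6.3% of all tested genes), 2 and 4 with upper-quartile normalization, 2 and 8 with a minimum mean CPM of 5 (12.1%), 8 and 12 with the batch covariate, 7 and 16 with OKO1 to OKO3 as OKO, and 0 and 0 with OKO4 to OKO7 as OKO, with the compared groups only and with YKO1 and YKO2 left out. With the sex covariate it was 1 and 0. The replicate numbers did not pair the libraries (24 correlations from -0.493 to 0.348, 5 of them over 0.1), and with the number as a replicate block 1 member and 6 pathway genes were called in OKO vs YKO and 0 pathway genes in OKO vs OWT. With each library left out in turn, members ranged from 0 (without YKO1) to 2 (without OKO1) and pathway genes from 0 (without YKO1) to 5 (without OKO7). The 1 pathway call in OKO vs OWT went to 0 with upper-quartile normalization, the compared groups only, the batch covariate and OKO4 to OKO7 alone, and ranged from 0 to 1 with a library left out. In YKO vs YWT pathway calls went from 0 to 1 with DESeq2. The causes were not tested.

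Uncalled log2 fold changes moved or changed sign. In OWT vs YWT the batch covariate, which the OKO libraries alone inform, gave -0.74 for Gadd45a, 0.16 for Gadd45g, -0.84 for Map2k3 and -0.73 for Map2k7, without a change of sign, and -0.53 for Map2k4, 0.73 for Mapk8, -0.50 for Mapk9, -0.67 for Mapk14 and -0.17 for Gadd45b, and Mapk14 was -0.022 with DESeq2, -0.054 with upper-quartile normalization and -0.060 with the minimum CPM. In YKO vs YWT Map2k7 was -0.017 without a filter and with the minimum CPM, and Map2k6 was -0.092 with YKO1 and YKO2 left out. In OKO vs YKO Map2k4 was 0.015 with the minimum CPM, and with OKO4 to OKO7 Map2k3 was 0.035, Map2k4 0.13 and Map2k7 0.045. In OKO vs OWT Map3k4 was 0.0028 with DESeq2, 0.11 with upper-quartile normalization and 0.15 with the minimum CPM, Map2k3 was 0.034 and 0.059 with the latter 2, and Map2k7 was 0.0039 and Mapk9 0.018 with the last. The batch covariate and OKO4 to OKO7 alone gave 0.14 and 0.17 for Map2k3, 0.042 and 0.069 for Map2k4, 0.050 and 0.079 for Map2k7, -0.27 and -0.24 for Mapk8, and 0.0020 and 0.031 for Mapk9.

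With a library left out, these ranges crossed 0. In OWT vs YWT they were -0.29 to 0.12 for Gadd45a, -0.079 to 0.081 for Map3k4, -0.18 to 0.018 for Map2k3, -0.13 to 0.081 for Map2k7, -0.049 to 0.21 for Mapk9, -0.065 to 0.085 for Mapk14 and -0.025 to 0.50 for Gadd45b. In YKO vs YWT they were -0.089 to 0.24 for Gadd45g, -0.012 to 0.13 for Map2k3, -0.040 to 0.22 for Map2k6, -0.12 to 0.10 for Map2k7 and -0.42 to 0.18 for Gadd45b, and in OKO vs OWT -0.0041 to 0.28 for Mapk8. Gadd45a per kilobase of its longest transcript was 15.9, 14.8, 25.6 and 11.2 in YWT, OWT, YKO and OKO, and Gadd45b 8.99 in OWT.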
